A study of Homo sapiens with 6 samples.

Results

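The interferon-stimulated genes described here are 43 genes of the antiviral response, taken from the deposited tables by symbol. Every one of the 43 symbols was listed among the 53826 entries of the deposited tables, and 25 of them passed the expression filter of more than 2 TPM in at least 1 of the 6 libraries, as did 13181 entries in all. RNA-seq was performed on A549-GFP and A549-TIPARP cells, with 3 libraries of each line numbered by experiment. The parental A549 line derives from a human lung adenocarcinoma. A549-TIPARP cells stably overexpress TIPARP, an ADP-ribosyltransferase, from a retroviral pMXs vector, and the A549-GFP control carries GFP in the same vector, so that both lines were transduced and neither is the parental line. Each construct is represented by 1 line, kept in DMEM with serum, and the sources used here describe no interferon or virus treatment of the sequenced cells. Whether the numbered libraries came from separate cultures is not given in the sources used here, so p-values measure the spread between these libraries, which may be technical.

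Interferons are secreted proteins that warn cells of viral infection. Type I and type III interferons act through receptors bound to Janus kinases, which phosphorylate STAT proteins, and the complex ISGF3, which contains STAT2 and IRF9, then forms. ISGF3 binds the interferon-stimulated response element (ISRE) in the promoters of its target genes, whereas interferon-gamma acts mainly at the gamma-activated site (GAS). The products block viral entry, detect and degrade viral RNA, conjugate ISG15 to proteins, and include STAT2 and IRF9 themselves.

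The promoters of the members were read first, as sequence that does not depend on the expression values. RefSeq windows from 250 bases before to 50 bases after the start site (GRCh38.p14) matched 35 of the 43 members. IFIT2, IFITM2, MX2, OAS2, OASL, USP18, TRIM22 and GBP2 were not matched. The ISRE core was searched on both strands as the repeat GAAA followed by a second GAAA, with 2 bases of any kind between them. It was present in 24 of the 35 members (68.6%), against 4.38% of the 27305 genes with a window. Among members with a window it was present in 13 of the 21 analysed and in 11 of the 14 not analysed. The spacing of 1 base, GAAANGAAA, was searched after the data were seen and was present in 13 of the 35 members, against 3.87% of all genes. The palindromic GAS core TTCNNNGAA, which can overlap an ISRE core, was present in 12 of the 35 members, against 9.38% of all genes. A match describes the letters in this window and not binding.

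The following 160 bases before the start site are shown for 5 members whose values are described later. Each runs 5′ to 3′ on the strand of the gene, with ISRE cores of either spacing in capitals. The windows are chr1:1013337-1013496 on the plus strand for ISG15, chr1:27672193-27672352 on the minus strand for IFI6, chr11:320861-321020 on the minus strand for IFITM3, chr17:78979924-78980083 on the minus strand for LGALS3BP, and chr12:112906802-112906961 on the plus strand for OAS1.
ISG15: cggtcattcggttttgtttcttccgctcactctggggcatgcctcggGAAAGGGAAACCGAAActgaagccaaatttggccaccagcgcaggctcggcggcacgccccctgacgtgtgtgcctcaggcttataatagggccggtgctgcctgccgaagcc
IFI6: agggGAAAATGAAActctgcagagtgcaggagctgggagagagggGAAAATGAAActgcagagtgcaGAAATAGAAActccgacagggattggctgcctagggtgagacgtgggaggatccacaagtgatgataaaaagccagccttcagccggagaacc
IFITM3: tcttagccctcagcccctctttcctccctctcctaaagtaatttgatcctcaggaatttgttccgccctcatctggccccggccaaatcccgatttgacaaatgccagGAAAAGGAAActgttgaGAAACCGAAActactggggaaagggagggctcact
LGALS3BP: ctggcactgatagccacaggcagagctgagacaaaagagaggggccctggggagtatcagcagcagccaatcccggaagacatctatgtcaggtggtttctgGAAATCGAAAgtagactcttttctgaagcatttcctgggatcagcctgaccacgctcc
OAS1: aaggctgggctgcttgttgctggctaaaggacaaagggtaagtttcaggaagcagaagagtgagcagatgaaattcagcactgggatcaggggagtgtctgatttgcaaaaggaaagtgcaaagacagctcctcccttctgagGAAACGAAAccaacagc
ISG15 held 2 overlapping cores, IFI6 held 3 separate cores, IFITM3 held 2 and LGALS3BP held 1. OAS1 held no core with the spacing of 2 bases and 1 core with the spacing of 1 base.

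**Figure D1:**
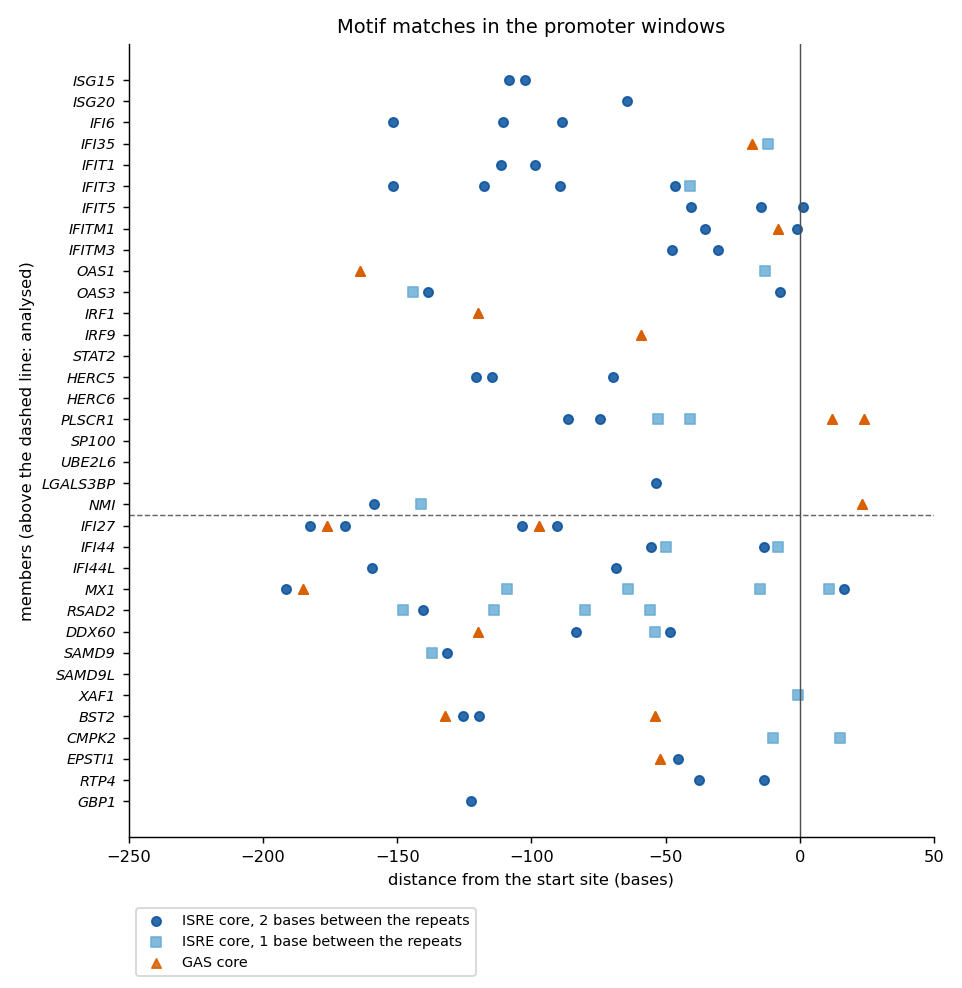
Distance from the start site in bases (horizontal axis) of each motif match in the promoters of the 35 interferon-stimulated genes with a RefSeq window, 1 gene per line, with analysed genes above the dashed line. Dark circles are ISRE cores with 2 bases between the repeats, light squares are ISRE cores with 1 base, and triangles are GAS cores; 24 genes carry a dark circle, most of them upstream of the start site.

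A549-GFP replicate 2 stood apart from the other libraries. Its distance from the average of its line, as a root mean square over all analysed genes, was 0.621 on the log2 scale, whereas the other 5 libraries had distances of 0.185 to 0.40. Relative to the average of the 6 libraries, its median gene was shifted by 0.27 on the log2 scale. That of A549-GFP replicate 3 was shifted the other way, by -0.19, and those of the remaining libraries by -0.08 to 0.03. Comparisons are given with and without A549-GFP replicate 2. Values of a line are listed in the order of its replicates 1, 2 and 3. TIPARP, the transgene, was at 6.79, 11.4 and 3.68 TPM in A549-GFP and at 131, 90.5 and 123 TPM in A549-TIPARP, a 17.2-fold higher level (limma, adjusted p = 0.0125). With the experiment number as a block in limma, its adjusted p was 0.513. The epithelial genes KRT8, KRT18, EPCAM and CDH1 were present in every library, though in A549-GFP replicate 2 KRT8 and KRT18 were the lowest of the 6 libraries, at 3855 and 4176 TPM, and CDH1 was the highest, at 142 TPM. Of 9 endothelial, mesenchymal and blood cell markers, 7, including the leukocyte genes PTPRC and CD3E, were at the floor in all 6 libraries. Their summed level above the floor was 0 to 6.06 TPM in A549-GFP and 2.23 to 5.63 TPM in A549-TIPARP, from CD14 and, in A549-GFP replicate 2, also from LUM at 1.09 TPM.

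The interferon-stimulated genes ranged in level from 1 TPM or less in every library to 97.5 TPM for IFITM2 in A549-TIPARP replicate 3. TPM below 1 had been set to 1 by the authors, which is called the floor here. Of the 18 members that were not analysed, 13 were at the floor in all 6 libraries. These included MX1 and MX2, GTPases that block viruses inside the cell, RSAD2 (viperin), which makes a chain-terminating nucleotide, and IFI44, IFI44L, OAS2, SAMD9L, XAF1, CMPK2, EPSTI1, TRIM22, RTP4 and GBP1. The other 5 (IFI27, OASL, DDX60, SAMD9 and BST2) exceeded the floor in at least 1 library, with a highest value of 1.93 TPM, that of IFI27 in A549-GFP replicate 2. TPM keeps no record of sequencing depth, so it cannot be said how low the level of these genes was. In bulk RNA, fewer expressing cells and less RNA per cell cannot be told apart.

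Of the 25 analysed members, 19 were above 2 TPM in all 6 libraries. In A549-GFP cells OAS1, which makes 2′-5′ oligoadenylate on viral double-stranded RNA, was the highest, with a geometric mean of 85.2 TPM. It was followed by IFI35 at 28.1 TPM, PLSCR1, a phospholipid scramblase, at 24.5 TPM, and NMI, a partner of STAT proteins and of IFI35, at 20.6 TPM. In A549-TIPARP cells the order was different, with IFITM2 at 54.6 TPM, OAS1 at 53.5 TPM and IFI35 at 40.6 TPM, and the libraries of IFITM2 and OAS1 overlapped. In the order of the mean level in A549-GFP cells, 22 of the 24 neighbouring pairs had overlapping libraries. The exceptions were OAS1 above IFI35, and HERC5 above IFITM1. IFIT2, IFIT3, HERC5 and IFITM1 passed the filter through 1 library each, which was A549-GFP replicate 2 for the first pair, A549-TIPARP replicate 2 for HERC5 and A549-TIPARP replicate 3 for IFITM1.

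**Figure D2:**
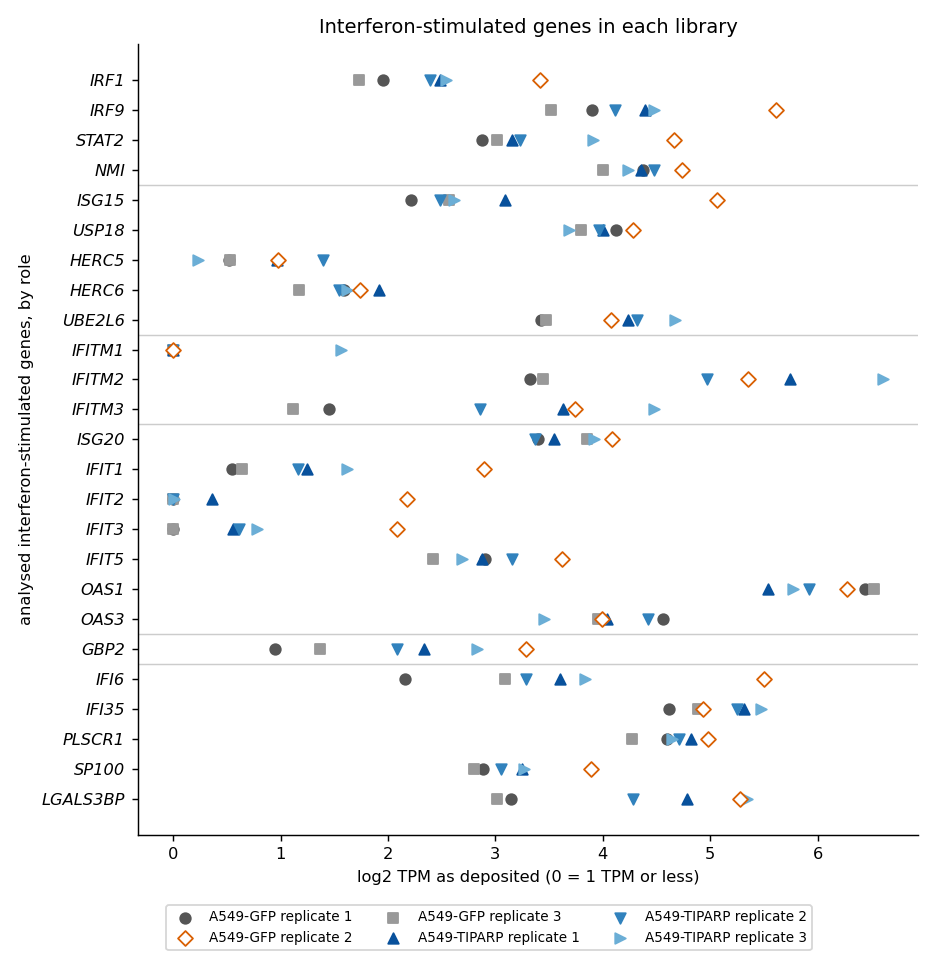
Deposited log2 TPM (horizontal axis, with 0 for 1 TPM or less) of the 25 analysed interferon-stimulated genes in each of the 6 libraries, grouped by role. Grey symbols are A549-GFP replicates 1 and 3, the open orange diamond is A549-GFP replicate 2 and blue triangles are A549-TIPARP; the diamond is the rightmost point for 15 of the 25 genes, and the blue triangles lie to the left of all other symbols for OAS1.

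The comparison of A549-TIPARP with A549-GFP asked which of these genes differed in level with TIPARP overexpression. IFITM2 and IFITM3, membrane proteins that block fusion of viruses in endosomes, had the highest ratios, 3.33-fold and 2.94-fold higher in A549-TIPARP cells. IFI35 and UBE2L6 were higher in every A549-TIPARP library than in any A549-GFP library, and OAS1 was lower, which is 8.0% of the analysed members against 5.36% of all analysed genes in the higher direction and 4.0% against 3.54% in the lower. The median of the members was -0.01 on the log2 scale, against -0.07 over all analysed genes, and this rested on A549-GFP replicate 2, without which it was 0.49 against 0.05. No member passed limma at an adjusted p of 0.05.

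A fold change here is the difference of the mean deposited log2 TPM. More than 2-fold higher were 2 of the 25 members, IFITM2 and IFITM3, against 1.53% of all analysed genes, and more than 2-fold lower were 0 of 25, against 0.432%. LGALS3BP lay just under the threshold, at 1.99-fold, and passed it when the median gene of all libraries was brought to the same level (log2 difference 1.06, background 1.81%). All 3 A549-TIPARP libraries were above all 3 A549-GFP libraries for 2 members, IFI35 and UBE2L6, against 5.36% of genes, and below them for 1 member, OAS1, against 3.54%. An exact permutation test of 3 against 3 libraries cannot go below 0.1. By limma, 0 of the 25 had an adjusted p under 0.05 (background 0.0152%) and 4 had an unadjusted p under 0.05 (background 3.85%), namely OAS1, IFITM2, UBE2L6 and IFI35.

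Without A549-GFP replicate 2, 21 of the 25 members were higher in A549-TIPARP and 4 were lower, compared with 11 and 14 when all libraries were used. The median of the members was 0.49 on the log2 scale, beside 0.05 over all analysed genes, of which 56.9% were higher without that library and 40.1% with it. These counts include IFITM1, HERC5, IFIT2 and IFIT3, which passed the filter through 1 library each. Over the 21 members above 2 TPM in at least 3 libraries, 17 were higher and 4 lower, with a median of 0.49, beside 55.8% and 0.04 over all such genes. Members more than 2-fold higher were then 4 of 25, IFITM2, IFITM3, LGALS3BP and GBP2 (background 2.91%), and 0 of 25 were more than 2-fold lower (background 0.296%). The 3 A549-TIPARP libraries lay above A549-GFP replicates 1 and 3 for 14 members, or 56.0%, against 21.2% of all analysed genes, and below them for OAS1 alone, against 6.42%. In limma without this library, 12 members had an unadjusted p under 0.05, or 48.0%, against 10.5% of genes. None of the 25 had an adjusted p under 0.05 (background 0.0228%), and the lowest adjusted p was 0.225. The members share regulators and these libraries, so they are not independent of each other.

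When the median gene of all libraries was brought to the same level, 17 members were higher and 8 lower with all 6 libraries, and 21 were higher and 4 lower without A549-GFP replicate 2. Of all analysed genes 49.7% and 49.3% were then higher. The medians of the members were 0.06 and 0.44 on the log2 scale. CD14, the monocyte marker among the analysed markers, was at the floor, 4.98 and 1.44 TPM in A549-GFP and at 3.03, 2.23 and 5.63 TPM in A549-TIPARP, while PTPRC was at the floor throughout.

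**Figure D3:**
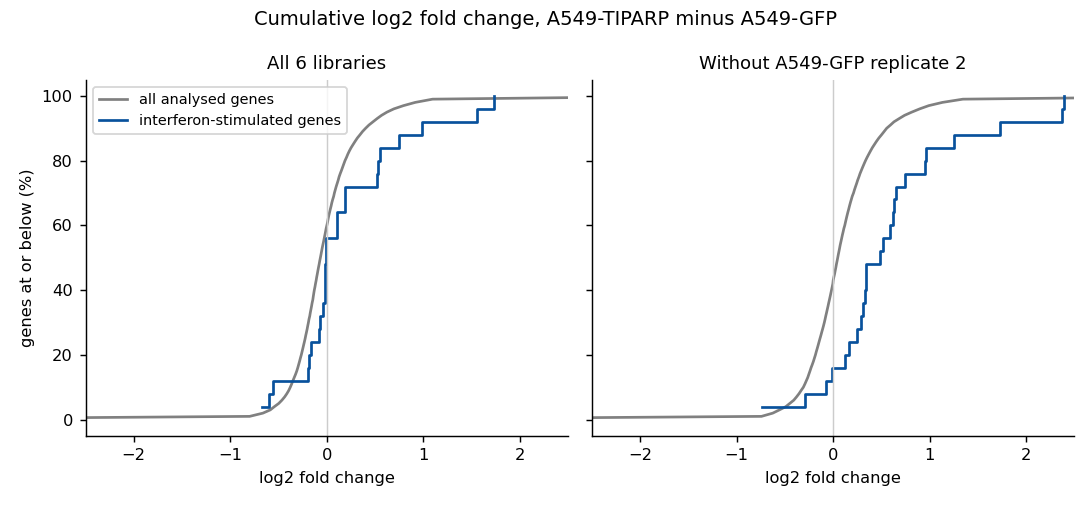
Cumulative share (vertical axis, in %) of the 25 analysed interferon-stimulated genes (blue steps) and of the 13181 analysed genes (grey curve) at or below each log2 fold change of A549-TIPARP over A549-GFP (horizontal axis, drawn to 2.5 either side of 0), with all 6 libraries on the left and without A549-GFP replicate 2 on the right. The curves cross on the left, where the medians are -0.01 and -0.07, and the blue steps lie to the right of the grey curve over most of their range on the right, where the medians are 0.49 and 0.05.

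**Figure D4:**
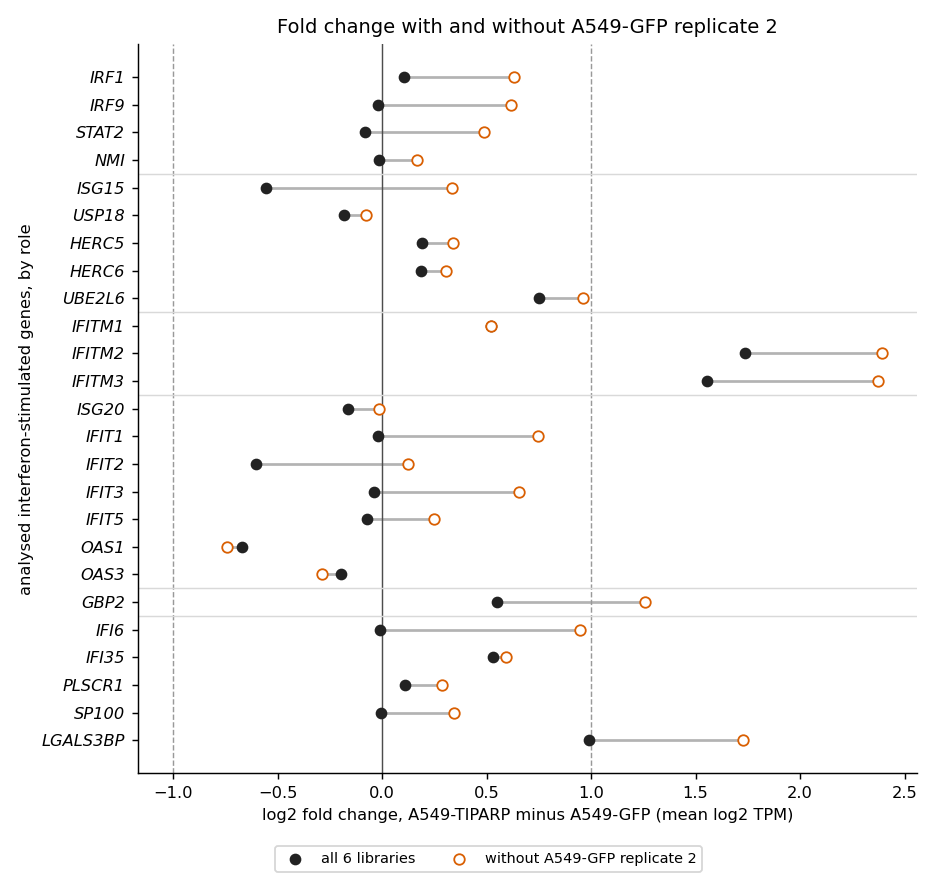
Log2 fold change of A549-TIPARP over A549-GFP (horizontal axis, differences of mean log2 TPM) for the 25 analysed interferon-stimulated genes, grouped by role, with all 6 libraries (filled points) and without A549-GFP replicate 2 (open points); dashed lines mark 2-fold. The open point lies to the right of the filled point for most genes, with ISG15 moving from -0.56 to 0.33, and to its left for OAS1 and OAS3.

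Proteins of viral entry and release were IFITM1, IFITM2, IFITM3, MX1, MX2 and BST2, of which 3 were analysed. IFITM2 was at 9.97, 40.7 and 10.9 TPM in A549-GFP and at 53.5, 31.2 and 97.5 TPM in A549-TIPARP. Replicate 2 of A549-GFP lay within the range of A549-TIPARP, and the other A549-GFP libraries lay below it. The mean log2 TPM was 4.04 ± 1.14 (SD, n = 3) in A549-GFP and 5.77 ± 0.82 in A549-TIPARP, and the limma difference on log2(TPM + 1) was 1.66 (SE 0.56, adjusted p = 0.983). Without A549-GFP replicate 2 the ratio was 5.25-fold (limma difference 2.29, SE 0.45, adjusted p = 0.225).

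IFITM3, whose promoter carries the pair of ISRE cores shown earlier, was likewise lowest in A549-GFP replicates 1 and 3, at a lower level than IFITM2. Its level was 2.73, 13.3 and 2.16 TPM in the 3 control libraries and 12.4, 7.23 and 22.2 TPM in the A549-TIPARP libraries. The mean log2 TPM was 2.10 ± 1.43 (SD, n = 3) and 3.65 ± 0.81, respectively. The ratio was 2.94-fold with all libraries (limma difference 1.31, SE 0.59, adjusted p = 0.994) and 5.18-fold without A549-GFP replicate 2 (limma difference 1.99, SE 0.43, adjusted p = 0.240). IFITM1, which acts mainly at the cell surface, was at the floor in 5 libraries and at 2.95 TPM in A549-TIPARP replicate 3, so no fold is given.

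The IFITM genes are close paralogs in 1 cluster on chromosome 11 (GENCODE 44, hg38), with IFITM2 at 303655 to 309397 and IFITM1 at 310041 to 315272 on the plus strand and IFITM3 at 319676 to 329475 on the minus strand. Of the 50-base stretches of the canonical IFITM3 transcript, 9.07% also occurred in IFITM2 and 17.4% in IFITM1. Of its 100-base stretches, 0% occurred in IFITM2 and 8.20% in IFITM1. These shares count exact matches between canonical transcripts and do not bound how many reads were shared. How reads shared by several genes were counted is not given in the sources used here, so the values of single IFITM genes are uncertain. The ratio of IFITM2 to IFITM3 was 3.65, 3.06 and 5.02 in A549-GFP and 4.31, 4.32 and 4.40 in A549-TIPARP, with A549-TIPARP inside the range of A549-GFP.

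ISG15, a ubiquitin-like protein, is attached to other proteins by the E2 enzyme UBE2L6 and the ligase HERC5 and is removed by USP18, and HERC6 is a relative of HERC5. All 5 genes were analysed, with 3 above and 2 below 0 in log2 fold change. Without A549-GFP replicate 2, 4 of the 5 were above 0. Of all analysed genes 40.1% were above 0 with all libraries and 56.9% without that library. ISG15 was at 4.65, 33.4 and 5.94 TPM in A549-GFP and at 8.48, 5.61 and 6.11 TPM in A549-TIPARP. The second A549-GFP library stood above all others, and the other 5 overlapped. The ratio was 1.47-fold lower in A549-TIPARP with all libraries (limma difference -0.53, SE 0.61, adjusted p = 0.994), and without A549-GFP replicate 2 the log2 difference was 0.33 in the other direction (adjusted p = 0.699).

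UBE2L6 was at 10.7, 16.9 and 11.1 TPM in the control libraries and at 18.8, 19.9 and 25.4 TPM in A549-TIPARP, with no overlap. The mean log2 TPM was 3.66 ± 0.37 (SD, n = 3) in A549-GFP and 4.41 ± 0.23 in A549-TIPARP, a 1.68-fold higher level (limma difference 0.70, SE 0.24, adjusted p = 0.994). Leaving out A549-GFP replicate 2 gave 1.95-fold (adjusted p = 0.225). The promoter of UBE2L6 was among those without an ISRE core in the window.

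USP18, which also restrains signalling at the type I receptor, stayed within a narrow range, at 17.4, 19.5 and 13.9 TPM in A549-GFP and 16.1, 15.7 and 12.8 TPM in A549-TIPARP. The lines overlapped, with a log2 difference of -0.18 (limma, adjusted p = 0.994). USP18 has a near-identical copy in the genome, USP41, and its value is uncertain where their reads were shared. HERC5 and HERC6 had a log2 difference of 0.19 each, with levels under 4 TPM in all libraries.

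The genes of interferon signalling among the members were STAT2 and IRF9, which belong to ISGF3, IRF1, a transcription factor induced by interferon-gamma, and NMI. All 4 were analysed, 1 was above 0 and 3 were below 0, and their median was -0.02 on the log2 scale. Of all analysed genes 40.1% were above 0, with a median of -0.07. Without A549-GFP replicate 2 all 4 were above 0, with a median of 0.55, beside 56.9% and 0.05 over all analysed genes. STAT2 was at 7.32, 25.3 and 8.10 TPM in A549-GFP and at 8.92, 9.38 and 15.0 TPM in A549-TIPARP. IRF9 was at 15.0, 48.8 and 11.5 TPM in A549-GFP and at 21.0, 17.3 and 22.2 TPM in A549-TIPARP. For both genes the second A549-GFP library was the highest of the 6, and every A549-TIPARP library lay above the other A549-GFP libraries.

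The log2 difference of STAT2 was -0.08 (limma, adjusted p = 0.998) and that of IRF9 was -0.02 (adjusted p = 0.998). Without A549-GFP replicate 2 these were 0.49 (adjusted p = 0.611) and 0.62 (adjusted p = 0.396). IRF1 had the same arrangement, at 3.89, 10.7 and 3.32 TPM in A549-GFP and 5.61, 5.25 and 5.81 TPM in A549-TIPARP. The log2 difference was 0.11 with all libraries and 0.63 without A549-GFP replicate 2 (limma, adjusted p = 0.325). NMI was at 20.7, 26.6 and 16.0 TPM in A549-GFP and at 20.5, 22.2 and 18.8 TPM in A549-TIPARP, and the lines overlapped.

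Genes of viral RNA sensing and decay are the IFIT proteins, which bind viral RNA ends, the OAS enzymes, which activate RNase L, the exonuclease ISG20 and the helicase DDX60. Of 10 members 7 were analysed. IFIT2 and IFIT3 were analysed through A549-GFP replicate 2, the library in which they were high. The other 5 had log2 fold changes below 0, with a median of -0.16. Over all analysed genes the median was also below 0, at -0.07, and 40.1% were above 0. Without A549-GFP replicate 2, 2 of these 5 were above 0 and their median was -0.01, beside 56.9% and 0.05 over all analysed genes.

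OAS1 lies on chromosome 12 at 112905856 to 112933219 on the plus strand (GENCODE 44, hg38), beside OAS3 and OAS2. Its level was 86.8, 77.2 and 92.3 TPM in A549-GFP and 46.6, 60.4 and 54.6 TPM in A549-TIPARP, with no overlap. The mean log2 TPM was 6.41 ± 0.13 (SD, n = 3) in A549-GFP and 5.74 ± 0.19 in A549-TIPARP, a 1.59-fold lower level. The limma difference was -0.66 (SE 0.18, unadjusted p = 0.00518, adjusted p = 0.778), the lowest unadjusted p of the members. OAS1 was 1.67-fold lower when A549-GFP replicate 2 was left out (adjusted p = 0.225).

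Its neighbour OAS3 overlapped between the lines, at 23.7, 15.9 and 15.5 TPM in A549-GFP and 16.4, 21.5 and 11.0 TPM in A549-TIPARP, and OAS2 was at the floor. IFIT1 was at 1.46, 7.44 and 1.56 TPM in A549-GFP and at 2.38, 2.24 and 3.06 TPM in A549-TIPARP. IFIT3 was at the floor in A549-GFP replicates 1 and 3, at 4.23 TPM in replicate 2, and at 1.47, 1.53 and 1.72 TPM in A549-TIPARP. For IFIT1 and IFIT3 every A549-TIPARP library therefore lay between the second and the other A549-GFP libraries. IFIT2 was at 4.53 TPM in A549-GFP replicate 2 and at or close to the floor in the other libraries, at most 1.29 TPM in A549-TIPARP replicate 1. ISG20 and IFIT5 overlapped between the lines, with log2 differences of -0.16 and -0.07. Without A549-GFP replicate 2 the differences were -0.01 and 0.25, and the lines still overlapped.

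GBP2, a guanylate-binding GTPase induced by interferon-gamma, was the analysed gene of the guanylate-binding proteins. It was at 1.93, 9.73 and 2.58 TPM in A549-GFP and at 5.04, 4.23 and 7.10 TPM in A549-TIPARP. Its mean log2 TPM was 1.87 ± 1.24 (SD, n = 3) and 2.41 ± 0.38, respectively, a ratio of 1.46-fold (limma, adjusted p = 0.994). Leaving A549-GFP replicate 2 out gave a ratio of 2.39-fold (adjusted p = 0.266).

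The nucleotide and lipid enzymes RSAD2 and CMPK2 were at the floor, and the last 14 members have other or less defined roles, of which 5 were analysed. LGALS3BP, a secreted galectin-binding glycoprotein, was at 8.82, 38.8 and 8.07 TPM in A549-GFP and at 27.5, 19.4 and 40.6 TPM in A549-TIPARP. The second A549-GFP library lay inside the range of A549-TIPARP. The mean log2 TPM was 3.81 ± 1.27 (SD, n = 3) and 4.80 ± 0.53, a ratio of 1.99-fold (limma difference 0.92, SE 0.55, adjusted p = 0.994), which was 3.31-fold without A549-GFP replicate 2 (limma difference 1.62, SE 0.31, adjusted p = 0.225).

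IFI35, a partner of NMI, was at 24.5, 30.6 and 29.5 TPM in A549-GFP and at 39.7, 38.0 and 44.4 TPM in A549-TIPARP, with no overlap. The mean log2 TPM was 4.81 ± 0.17 (SD, n = 3) and 5.34 ± 0.12, a 1.45-fold higher level (limma difference 0.52, SE 0.18, adjusted p = 0.994). The ratio was similar without A549-GFP replicate 2, at 1.51-fold (adjusted p = 0.292). IFI6, a mitochondrial and endoplasmic reticulum protein with 3 ISRE cores in the promoter shown earlier, was at 4.47, 45.3 and 8.50 TPM in A549-GFP and at 12.1, 9.74 and 14.3 TPM in A549-TIPARP. The log2 difference was -0.01 with all libraries and 0.95 without A549-GFP replicate 2 (limma, adjusted p = 0.421). PLSCR1 was at 24.2, 31.4 and 19.4 TPM in A549-GFP and at 28.2, 26.2 and 25.0 TPM in A549-TIPARP, and the lines overlapped, as they did for the nuclear body protein SP100. Without A549-GFP replicate 2 neither gene overlapped, with log2 differences of 0.29 for PLSCR1 and 0.34 for SP100. Of all analysed genes 21.2% did not overlap in this direction in that setting.

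**Figure D5:**
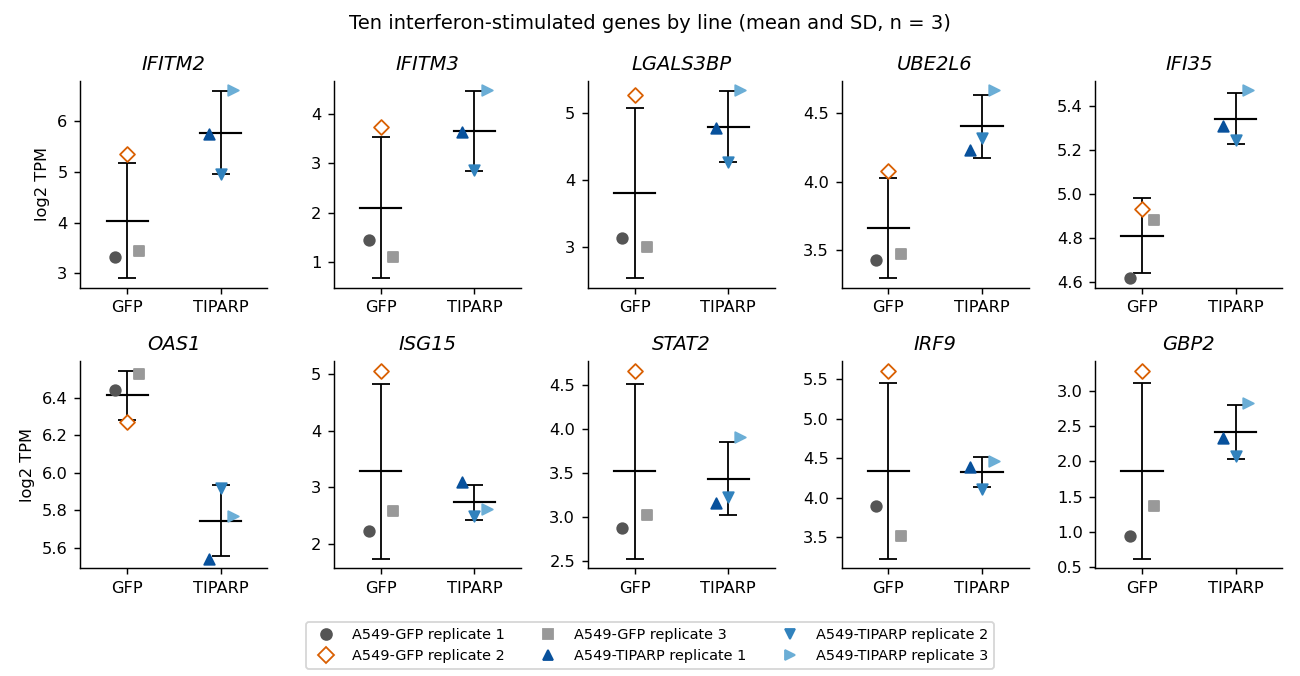
Deposited log2 TPM (vertical axis, scaled for each gene and not starting at 0) of 10 interferon-stimulated genes in A549-GFP and A549-TIPARP libraries; horizontal bars are means and whiskers SD (n = 3). UBE2L6 and IFI35 are higher and OAS1 is lower in every A549-TIPARP library, while for ISG15, STAT2, IRF9 and GBP2 the open diamond, A549-GFP replicate 2, is the highest point.

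A549-GFP replicate 2 was compared with the other A549-GFP libraries as a description of 1 library, with no test. Of the 25 members 13 were more than 2-fold above the mean of A549-GFP replicates 1 and 3, or 52.0%, against 18.0% of all analysed genes. It was the highest of the 6 libraries for 15 members, or 60.0%, against 52.0% of genes. IFIT2 and IFIT3 are in both counts and had passed the filter through this library. Over genes above 2 TPM in another library, a filter added after the data were seen, the counts were 11 of 23 members, or 47.8%, against 16.0%, and 13 of 23, or 56.5%, against 50.4%. The median difference was 1.04 on the log2 scale for the members and 0.38 for all analysed genes, and 0.96 and 0.36 with that filter. The highest ratios were 7.34-fold for IFI6, 6.36-fold for ISG15, 5.48-fold for IFITM3, 4.93-fold for IFIT1, 4.60-fold for LGALS3BP and 4.36-fold for GBP2, and IFIT2 and IFIT3, at the floor in the other A549-GFP libraries, were at least 4.53-fold and 4.23-fold higher. IRF9 was 3.73-fold, STAT2 3.28-fold and IRF1 2.97-fold above the other A549-GFP libraries. OAS1 and OAS3 were the members below 0, at -0.21 and -0.27 on the log2 scale. This comparison and that of A549-TIPARP without the library share A549-GFP replicates 1 and 3, so their values for a gene are not independent.

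Upstream of these genes, the interferons themselves were listed at low values. Of 21 interferon genes 20, including IFNB1 and IFNL1, were at the floor in all 6 libraries, and IFNE, an epithelial type I interferon, was at 1.49, 4.87 and 1.5 TPM in A549-GFP and at 2.49, 2.28 and 3.05 TPM in A549-TIPARP. IFNE thus had the arrangement of IFIT1. The 9 receptor subunits and Janus kinases were all analysed, and 0 passed 2-fold in either direction, with log2 differences between -0.67 for IFNGR1 and 0.25. Few genes did so in all, 1.53% of all analysed genes in the higher direction and 0.432% in the lower. IFNAR1, a type I receptor subunit, was at 8.86 to 15.2 TPM and its partner IFNAR2 at 9.97 to 18.4 TPM over the 6 libraries, and the kinases JAK1 and TYK2 were at 28.9 to 45.1 TPM and 22.2 to 32.5 TPM. A549-GFP and A549-TIPARP overlapped for these 4 genes. IFNGR2, a subunit of the interferon-gamma receptor, was the gene of this list whose lines did not overlap, at 27.2 to 30.7 TPM in A549-GFP and 33.7 to 34.5 TPM in A549-TIPARP, against 5.36% of all analysed genes in this direction.

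Of 8 further STAT and IRF factors 7 were analysed, and none was past 2-fold with all 6 libraries or without A549-GFP replicate 2. The shares of all analysed genes were 1.53% higher and 0.432% lower, and 2.91% and 0.296% without that library. The median log2 difference of the factors was 0.01, or 0.28 without A549-GFP replicate 2, beside -0.07 and 0.05 over all analysed genes. Of 9 inhibitors of the pathway 8 were analysed, and the lines did not overlap for the phosphatase PTPN6, at 25.2 to 31.7 TPM in A549-GFP and 34.4 to 34.5 TPM in A549-TIPARP, against the same 5.36%. SOCS1, a feedback inhibitor of Janus kinases, was at the floor in all libraries, and SOCS3 was at 1.91, 6.68 and 3.21 TPM in A549-GFP and at 4.76, 4.85 and 6.95 TPM in A549-TIPARP. The log2 difference of SOCS3 was 0.66, and 1.14 without A549-GFP replicate 2. In that setting it was 1 of the 8 inhibitors past 2-fold, against 2.91% of all analysed genes in this direction. No gene of these lists had an adjusted p under 0.05 by limma with all 6 libraries or without A549-GFP replicate 2. The shares of all analysed genes were 0.0152% and 0.0228%.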

How the data were processed

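Stranded mRNA libraries, 3 from A549-GFP and 3 from A549-TIPARP cells, were sequenced as paired-end reads. Strand NGS at default parameters was used by the authors for alignment to the human transcriptome of hg38. For each library the authors deposited gene-level log2 TPM, in which TPM below 1 had been set to 1. The software version, the annotation release and the treatment of reads matching several genes are not given in the sources used here. The tables hold no counts, so depth is unknown and no counting error is given.

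Lines and replicate numbers were taken from the sample titles. Genes with TPM above 2 in at least 1 library were analysed, as in the study. Fold changes are differences of mean deposited log2 TPM. limma 3.58.1 in R 4.3.3 was run two-sided on log2(TPM + 1) of all analysed genes, with a variance trend, no block and Benjamini-Hochberg adjustment, and the script was tested on simulated data. In that test the spread of each gene was kept and known changes were added. An adjusted p under 0.05 was reached by 21 of 98 genes changed by 1 on the log2 scale. It was reached by 86 of 102 genes changed by 2. A gene without such an adjusted p can therefore still differ 2-fold. The pseudocount lowers the limma difference of genes with low TPM, and a value at the floor bounds what a fold can show.

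The members, gene lists and tests were chosen with earlier results of these data known. Values in every library were given by rule for members past 2-fold with all libraries or without A549-GFP replicate 2, the 5 highest in level, the 5 of lowest limma p, and IFITM1, ISG15, USP18, IRF1, STAT2 and IRF9. Values in every library for IFI6, IFIT1, IFIT2, IFIT3, OAS3, IFNE and CD14, and ranges for IFNGR2 and PTPN6, were added after they were seen. Motifs were searched in RefSeq promoter windows on GRCh38.p14, and gene coordinates were read from GENCODE 44 (hg38). The alternatives were another pseudocount (0.1) or none, other filters, median-ratio rescaling, limma without a trend, a replicate block, a threshold of 1.5-fold and each library left out. The value of 1 gene of the pathway lists is not reported here.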

Additional observations from a re-analysis of the deposited data

How the results depend on the processing

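Under every alternative run, no member had an adjusted p under 0.05 by limma, and the lowest among 15 members followed singly was 0.225. With a threshold of 1.5-fold, 4 members were higher (IFITM2, IFITM3, LGALS3BP and UBE2L6, against 5.7% of all analysed genes) and 2 lower (3.02% of genes), OAS1 and IFIT2, of which IFIT2 had passed the filter through A549-GFP replicate 2, the library in which it was high. Leaving out each library in turn gave 2 to 4 members more than 2-fold higher (1.73% to 2.91% of all analysed genes) and 0 to 1 lower (0.296% to 1.52%), a median log2 fold change of -0.20 to 0.49, 2 to 14 members with no overlap in the higher direction (6.53% to 21.2%) and 1 to 2 in the lower (5.21% to 23.5%), and 0 to 1 genes of the pathway lists past 2-fold in each direction. The 1 member lower, ISG15, was seen without A549-GFP replicate 1, the added lower member with no overlap, USP18, and the pathway gene lower, IFNGR1, without A549-GFP replicate 3, and the 4, the 14 and the 0.49 without A549-GFP replicate 2. Of 208 alternatives for 15 single genes 191 kept the direction and 17 reversed it, and IFITM1 without A549-TIPARP replicate 3, at the floor in all 5 libraries, gave no value. As limma differences, rescaling gave 0.049 for NMI and 0.038 for IRF9. With each library left out in turn, 6 of the genes changed sign, and their differences ranged from -0.189 to 0.16 for NMI, from -0.387 to 0.44 for STAT2, from -0.421 to 0.58 for IRF9, from -0.205 to 0.513 for IRF1, from -0.0605 to 0.275 for PLSCR1 and from -1.02 to 0.287 for ISG15. The highest of each range was the value without A549-GFP replicate 2. Rescaling together with removal of A549-GFP replicate 2, chosen after the data were seen, gave 4 members more than 2-fold higher, a median of 0.44, and 0.11 for NMI, 0.40 for STAT2, 0.53 for IRF9 and 0.24 for ISG15. The cause of these reversals was not tested.

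The experiment numbers did not pair the libraries: deviations from the average of each line had a mean correlation of -0.143 over the 3 same-numbered pairs. With the number as a replicate block, 0 members had an adjusted p under 0.05, and genes with an unadjusted p under 0.05 numbered 414 in place of 508. The transgene TIPARP had an adjusted p of 0.513 with the block (unadjusted p = 7.78e-05). The tables hold no counts, so the depth behind values near the floor is unknown.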

Other observations

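A further list of 27 interferon-inducible genes outside the 43, including the RNA-activated kinase EIF2AK2, the RNA-editing enzyme ADAR, TRIM ligases and PARP9, PARP14 and DTX3L, was read beside the members. Of these 26 were analysed, and 0 were past 2-fold with all 6 libraries or without A549-GFP replicate 2. Over all analysed genes the shares were 1.53% higher and 0.432% lower, and 2.91% and 0.296% without that library. The median log2 difference of the 26 genes was -0.06, or 0.16 without A549-GFP replicate 2, beside -0.07 and 0.05 over all analysed genes. By limma 0 of the 26 had an adjusted p under 0.05 and 1, APOL2, an unadjusted p under 0.05, or 3.85%, as over all analysed genes. The lines did not overlap for 1 gene in the higher and 2 in the lower direction, against 5.36% and 3.54% of all analysed genes, and these 3 are given as values. APOL2, an apolipoprotein L, was at 35.0, 44.2 and 43.3 TPM in A549-GFP and at 31.8, 31.6 and 22.6 TPM in A549-TIPARP, with no overlap and a log2 difference of -0.52 (limma, adjusted p = 0.994). IFI30, a lysosomal thiol reductase, was also lower in every A549-TIPARP library, at 49.8 to 75.4 TPM against 77.0 to 88.1 TPM. LY6E, a surface protein that limits coronavirus entry, was higher in each, at 410 to 475 TPM against 334 to 403 TPM. A549-GFP replicate 2 was the highest library for 21 of the 26 genes, against 52.0% of all analysed genes. APOL2, IFI30 and LY6E were chosen for naming with their values known.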
